A study of Rattus norvegicus with 8 samples.

Results

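Scn9a and Scn8a encode the voltage-gated sodium channels Nav1.7 and Nav1.6, and their transcripts were followed in the dorsal root ganglia (DRGs) of male and female rats with and without a chronic constriction injury (CCI) of the sciatic nerve. Both genes were chosen by name, as ENSRNOG00000006639 for Scn9a and ENSRNOG00000005309 for Scn8a, and they are 2 of the 32623 Ensembl genes in the deposited count table. Both passed the filter on low counts, as did 16988 genes in all. The table covers 8 libraries in 4 groups of 2 rats, naïve or CCI and male or female. All were adult, gonadally intact Sprague Dawley rats, and each library came from the pooled ipsilateral L4-L6 DRGs of 1 rat. CCI rats had 4 silk sutures tied loosely around the sciatic nerve, and their DRGs were taken on day 14. The controls had no surgery, so a change after CCI includes that of the incision. Per the study's methods, the CCI rats kept were those whose withdrawal threshold had dropped, and the stage of the estrous cycle was not determined.

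Voltage-gated sodium channels open on depolarization and carry the inward current of the action potential. Nav1.7 is abundant in peripheral sensory neurons, nociceptors among them, and amplifies small depolarizations near the resting potential. Loss of its function causes congenital insensitivity to pain and gain of function causes inherited pain disorders. Nav1.6 is the main sodium channel of nodes of Ranvier and of mature axon initial segments, and carries persistent and resurgent current in large myelinated sensory neurons. Both proteins are pore-forming alpha subunits. They work with beta subunits, with ankyrin and cell adhesion proteins that hold them in place, and with intracellular fibroblast growth factor homologous factors that alter their inactivation.

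The 2 genes lie on different chromosomes and differ in the sequence before their annotated starts, which is shown because part of their response was shared. In RefSeq's annotation of the rat assembly GRCr8, which is not the rn6 build of the counts, Scn9a lies on the minus strand of chromosome 3 between Scn1a and Scn7a, other alpha subunit genes. Scn8a lies on the plus strand of chromosome 7 between Slc4a8 and Tmdd1. The 250 bases before each start are printed 5′ to 3′ on the gene's strand, with matches to the GC box GGGCGG in capitals, at chr3:71701378-71701627 for Scn9a and chr7:133860977-133861226 for Scn8a.
Scn9a: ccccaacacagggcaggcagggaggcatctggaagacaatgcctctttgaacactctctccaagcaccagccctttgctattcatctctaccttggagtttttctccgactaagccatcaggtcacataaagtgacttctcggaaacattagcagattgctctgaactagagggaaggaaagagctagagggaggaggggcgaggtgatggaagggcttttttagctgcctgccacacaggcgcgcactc
Scn8a: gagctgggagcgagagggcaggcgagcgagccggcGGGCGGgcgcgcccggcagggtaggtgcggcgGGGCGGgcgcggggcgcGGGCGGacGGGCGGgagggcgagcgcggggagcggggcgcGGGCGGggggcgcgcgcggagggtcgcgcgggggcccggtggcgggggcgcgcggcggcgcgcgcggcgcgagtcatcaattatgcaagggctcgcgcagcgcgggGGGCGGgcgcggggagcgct
The Scn8a window held 86% G and C with 53 CpG dinucleotides, a higher G and C share than 99.9% of 33469 rat promoters of the same length. The Scn9a window held 52.4% and 5 CpG, near the medians of 51.2% and 5 over all promoters. The GC box occurred 6 times for Scn8a and 0 times for Scn9a, and at least once in 30.5% of all promoters when both strands were searched. The letters of the AP-1 site TGANTCA, the cAMP response element TGACGTCA, the CCAAT box CCAAT and the TATA box TATAAA occurred in neither window, against 6.34%, 1.59%, 34% and 12.9% of all promoters. These are matches of letters only, and the Scn8a window lies inside the annotated extent of the gene, which has transcripts that start further upstream.

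Total counts per library ranged from 39489103 to 60818457. Levels are given as CPM, which are counts relative to a library size that edgeR's TMM factors have adjusted. Groups were compared with edgeR's quasi-likelihood test over all 16988 genes with Benjamini-Hochberg adjustment, and a gene was called at an adjusted p below 0.05 with an absolute log2 fold change (log2FC) above 0.5. The lowest count behind any value of the members was 14999 for Scn9a and 5641 for Scn8a, so counting error was at most 0.817% and 1.33% of a value. The 2 rats of a group differed by up to 1.15-fold in Scn9a and up to 1.23-fold in Scn8a. The spread between rats therefore set the precision, except where a pair of rats differed by no more than counting error, as Scn9a did in naïve females and Scn8a in CCI males. The table headers of replicate 1 of both male groups carry an added letter that the sample titles do not have. The study sequenced in 2 batches, and which library belongs to which is not given in the sources used here, so batch was not tested.

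To determine how nerve injury changed Scn9a in male rats, the CCI males were compared with naïve males. Scn9a stood at 287 and 329 CPM in the naïve males (308 ± 30.1, mean ± SD, n = 2) and at 711 and 676 CPM in the CCI males (694 ± 24.5). Both injured males lay above both naïve males, and these groups did not overlap in 72.8% of all genes. The rise was 2.26-fold (95% interval 1.89 to 2.69), which is a log2FC of 1.17 ± 0.0983 (SE, edgeR adjusted p = 0.00565). In this comparison 21.6% of all genes were called and 9.05% were called higher, and 2.16% of genes had a higher log2FC than Scn9a.

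Scn8a rose by a similar factor in males. It stood at 108 and 132 CPM in the naïve males (120 ± 17.4, n = 2) and at 245.4 and 244.2 CPM in the CCI males (245 ± 0.808). The CCI males were almost equal, and the groups did not overlap, as was so for 72.8% of all genes in this comparison. The rise was 2.04-fold (95% interval 1.66 to 2.52), with a log2FC of 1.03 ± 0.117 (SE, edgeR adjusted p = 0.00615). The intervals of the 2 genes overlapped widely. Without CCI male replicate 1 the log2FC stayed at 1.14 for Scn9a and 1.03 for Scn8a, but each adjusted p became 0.0502, where edgeR called 0 genes of all, with 6494 at an unadjusted p below 0.05.

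In females Scn9a rose as well. It stood at 374 and 378 CPM in the naïve females (376 ± 2.71, n = 2) and at 644 and 715 CPM in the CCI females (679 ± 49.9). Both injured females lay above both naïve females, and these groups did not overlap in 59.5% of all genes. The rise was 1.79-fold (95% interval 1.56 to 2.07), with a log2FC of 0.84 ± 0.0875 (SE, edgeR adjusted p = 0.00245). In females 5.69% of all genes were called, 3.69% as higher, and 3.9% of genes had a higher log2FC than Scn9a. Without CCI female replicate 2 the log2FC was 0.78 and Scn9a was not called. Without CCI female replicate 1 the log2FC was 0.93. The reason for the lost call was not tested.

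Scn8a was not called in females. It stood at 135 and 146 CPM in the naïve females (141 ± 7.62, n = 2) and at 167 and 206 CPM in the CCI females (187 ± 27.6). The groups did not overlap, but the 2 injured rats lay further apart than the lower of them lay from the higher naïve rat. Non-overlap was found for 59.5% of all genes here. The difference was 1.32-fold (95% interval 1.10 to 1.58), a log2FC of 0.40 ± 0.110 (SE, edgeR adjusted p = 0.0606). With DESeq2, the tool of the study, the log2FC was the same to 2 decimals and the adjusted p was 0.0156, which is past the p threshold and under the log2FC threshold.

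**Figure D1:**
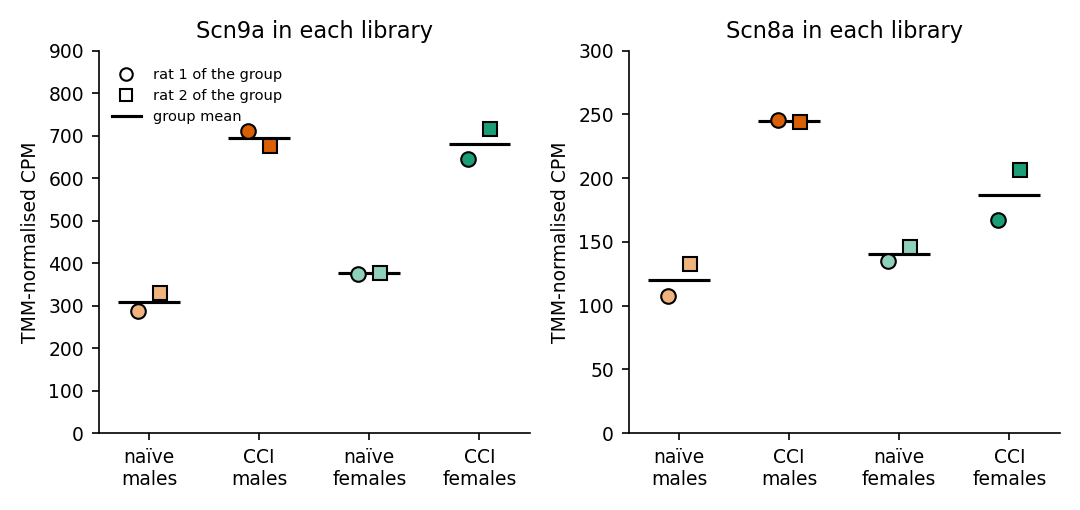
TMM-normalised CPM (vertical axes, from 0) of Scn9a (left) and Scn8a (right) in each of the 8 libraries, with the 2 rats of a group as a circle and a square and the group mean as a line. Scn9a was near 694 and 679 CPM in injured males and females, while Scn8a was at 245 CPM in injured males and 187 CPM in injured females.

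To identify whether the sexes differed in these genes, females were compared with males in each condition. In naïve rats Scn9a was higher in females by a log2FC of 0.29 (95% interval 0.05 to 0.53) and Scn8a by 0.23 (95% interval −0.07 to 0.54), and both came to −0.00733 and −0.065 when libraries were scaled to 4 pan-neuronal genes described further on. That scaling moved the median log2FC of all genes in this comparison to −0.31, and relative to it Scn9a and Scn8a stood at 0.30 and 0.24. A scaling moves all genes of a comparison by nearly the same amount. These relative values therefore hardly depend on the scaling and do not test the difference. Neither was called, with edgeR adjusted p-values of 0.15 and 0.287, and 0.0706% of all genes were called. For both genes each naïve female lay above both naïve males, and the groups did not overlap in 60% of all genes. In DESeq2 the naïve difference of Scn9a had an adjusted p of 0.0476 at a log2FC of 0.30, which is under the log2FC threshold.

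After CCI, Scn9a differed between females and males by a log2FC of −0.03 (95% interval −0.23 to 0.18, edgeR adjusted p = 0.901, 0.17 when scaled to the pan-neuronal genes), and the groups overlapped. Scn8a was lower in CCI females by a log2FC of −0.39 (95% interval −0.65 to −0.12), without overlap, as in 51.2% of all genes. Scaled to the pan-neuronal genes, Scn8a had −0.19 (adjusted p = 0.334), where the median of all genes was 0.21. The difference was not called by edgeR under TMM (adjusted p = 0.153, 1.06% of all genes called) and in DESeq2 had an adjusted p of 0.00716, again under the log2FC threshold. By group mean both genes were lowest in naïve males, then naïve females, then CCI females, and highest in CCI males. For Scn9a only the step from naïve females to CCI females was called between neighbours in that order, and for Scn8a no step between neighbours was.

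The difference of the responses was tested directly as the interaction of sex and CCI over all 8 libraries. The change of Scn8a was smaller in females than in males by 0.62 on the log2 scale (−0.62, 95% interval −1.03 to −0.21), with an unadjusted p of 0.00864 and an adjusted p of 0.0978 in edgeR, which called 1.59% of all genes. In DESeq2 the same difference was −0.63 with an adjusted p of 0.00388, and in edgeR without the filter on low counts −0.63 with an adjusted p of 0.0363. The interaction of Scn8a thus passed the threshold in some settings and not in others. For Scn9a the interaction was −0.32 (95% interval −0.61 to −0.03), with adjusted p-values of 0.177 in edgeR and 0.0675 in DESeq2. A sex difference in the response of Scn9a was therefore not called by either tool.

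The count ratio of Scn9a to Scn8a within a library needs no normalization, and gene length cancels in its change. The ratio was 2.66 and 2.49 in naïve males and 2.90 and 2.77 in CCI males. Female rats had 2.76 and 2.59 when naïve, against 3.85 and 3.46 after CCI. The injured females were highest. All 4 injured rats were above all 4 naïve rats, but the lowest injured rat, a male, was above the highest naïve rat, a female, by 0.189%, which is less than the counting error of these ratios (SD 1.07% and 1.46%). The mean log2 ratio was higher after CCI by 0.14 in males and 0.45 in females, and by 0.29 over both. An exact two-sided permutation test of the libraries within each sex gave p = 0.0556, the smallest that its 36 arrangements allow. Permuted over all 8 libraries without regard to sex, the exact p was 0.0286, the smallest of 70 arrangements. Whether the ratio changed more in females than in males was not tested.

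**Figure D2:**
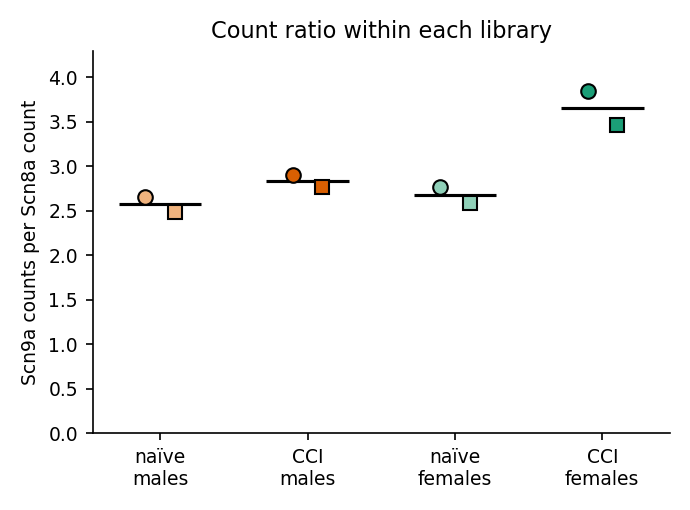
Scn9a counts divided by Scn8a counts (vertical axis, no unit, from 0) in each library, with the 2 rats of a group as a circle and a square and group means as lines. The means were 2.57 and 2.83 in naïve and CCI males, and 2.68 and 3.65 in naïve and CCI females.

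Of the 14 sodium channel genes listed for comparison, 4 had an identifier in the tables used here, namely Scn1a, Scn7a, Scn8a and Scn9a. The study picked these on the same libraries, so their directions are not independent evidence. In males 3 of the 4 were called higher, against 9.05% of all genes, with a median log2FC of 1.09 against −0.01 over all genes. In females 2 of the 4 were called higher, against 3.69% of all genes, with a median of 0.51 against −0.02. Between the sexes 0 of the 4 were called in either condition by edgeR, with 3 at an unadjusted p below 0.05 in naïve rats and 2 after CCI. DESeq2 called 0 in naïve rats and 1 after CCI. In the interaction edgeR called 0 of the 4, with all 4 at an unadjusted p below 0.05, and DESeq2 called 3. Over all genes edgeR called 270 in the interaction and DESeq2 1594.

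Scn1a, which encodes Nav1.1, a channel of large-diameter sensory neurons, had a pattern near that of Scn8a. In males it was at 71.9 and 88.9 CPM when naïve and 179.5 and 176.1 CPM after CCI. In females it was at 101.8 and 102.0 CPM when naïve and 115 and 136 CPM after CCI. Its injured males were above all other rats, and injured and naïve males did not overlap in 72.8% of all genes. The log2FC was 1.15 in males (edgeR adjusted p = 0.00569) and 0.29 in females (adjusted p = 0.0994, not called), and the interaction of −0.85 had an adjusted p of 0.0523. By group mean, the Scn8a to Scn1a count ratio went down from 1.49 to 1.38 in males and up from 1.38 to 1.49 in females. The Scn9a to Scn1a ratio went from 3.85 to 3.90 in males and from 3.69 to 5.44 in females.

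Scn7a was called in females and not in males. It encodes the atypical channel Nax, which responds to extracellular sodium and is known from both glia and neurons. In males Scn7a was at 1094 and 1057 CPM when naïve and 1259 and 1180 CPM after CCI. In females it was at 871 and 912 CPM when naïve and 1358 and 1407 CPM after CCI. Here the injured females were the highest, and injured and naïve females did not overlap in 59.5% of all genes. Its log2FC was 0.62 in females (edgeR adjusted p = 0.00702, called) and 0.19 in males (adjusted p = 0.108, not called), with an interaction of 0.45 (adjusted p = 0.0629). Among Scn9a and its chromosomal neighbours, the log2FC of Scn9a and Scn1a was about equal in males, at 1.17 and 1.15, while in females it was 0.84 for Scn9a, 0.29 for Scn1a and 0.62 for Scn7a. The alpha subunit genes are similar in sequence, and the strand setting of the counting is not given in the sources used here, so reads shared among paralogs or with an antisense transcript were not separated.

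**Figure D3:**
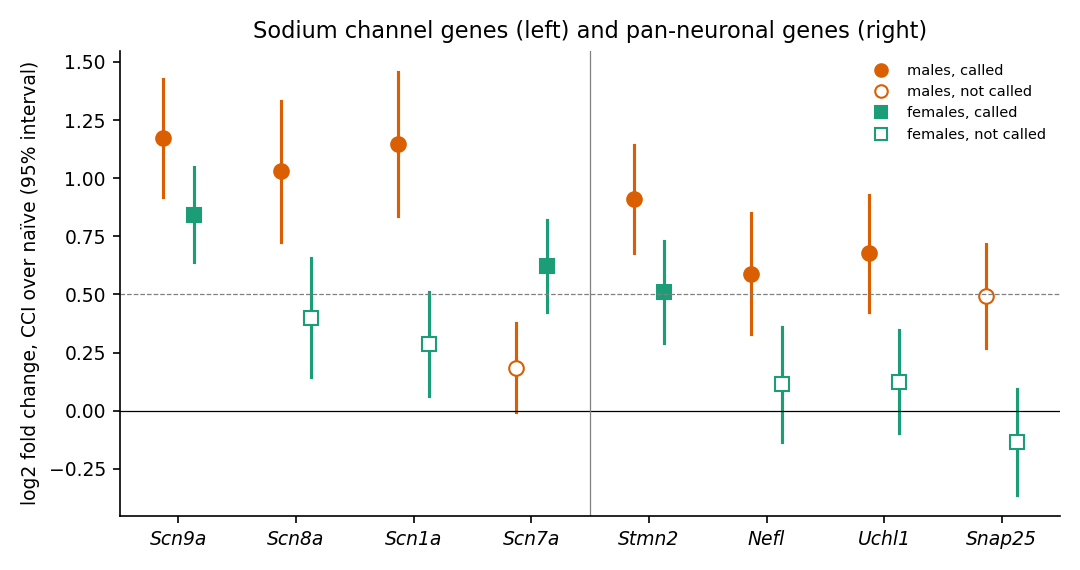
Log2FC of CCI over naïve rats (vertical axis) with its 95% interval in males (circles) and females (squares), filled where called, for the 4 sodium channel genes and for 4 pan-neuronal genes. Scn9a was called in both sexes, Scn8a and Scn1a in males at 1.03 and 1.15, and Scn7a in females at 0.62. The dashed line is the threshold of 0.5.

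The channels' partners were read from a list of 11 genes of the node and axon initial segment, of which 4 had an identifier. In males 2 of these 4 were called higher and in females 1, against 9.05% and 3.69% of all genes. The study picked these 4 on the same libraries, so the counts are not independent evidence. Nrcam, an adhesion molecule that binds neurofascin at the node, rose in males by a log2FC of 1.07 (edgeR adjusted p = 0.00565), from 143 and 155 CPM to 324 and 300 CPM. In females Nrcam had a log2FC of 0.47 (adjusted p = 0.0242), under the log2FC threshold. Cntn1 encodes contactin, which binds sodium channel complexes at the axon surface, and it was called in both sexes at 0.96 in males and 0.55 in females (adjusted p = 0.0123). Kcna2, a potassium channel subunit of the juxtaparanode, had log2FC values of 0.38 and −0.01 and was not called.

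Ank3 encodes ankyrin-G, which anchors both channels at the initial segment and node, and its change was more positive in females than in males. It was at 347 and 362 CPM in naïve males and 302 and 326 CPM in CCI males. Females had 303 and 302 CPM when naïve, against 396 and 407 CPM after CCI. The injured females were highest and the injured males were not above the naïve males. Injured and naïve females did not overlap in 59.5% of all genes. The log2FC was −0.17 in males (edgeR adjusted p = 0.138) and 0.40 in females (adjusted p = 0.0234, under the log2FC threshold). The interaction of 0.58 was called (edgeR adjusted p = 0.0469), as were 1.59% of all genes. That adjusted p lies just under the threshold of 0.05.

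Of 4 FGF homologous factors, Fgf12 and Fgf13 had an identifier, and Fgf13, which binds the carboxyl terminus of the channels, was called in males at 0.68 (edgeR adjusted p = 0.0109) with 0.11 in females. Fgf12 had 0.44 in males and −0.09 in females and was not called. The interactions were −0.57 for Fgf13 and −0.52 for Fgf12, with edgeR adjusted p-values of 0.0913 and 0.0512.

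Of 10 pan-neuronal genes 4 had an identifier (Uchl1, Snap25, Stmn2 and Nefl), and these too were picked by the study on the same libraries, so they need not stand for the others. In males 3 of the 4 were called higher, against 9.05% of all genes, with a median log2FC of 0.63. In females Stmn2 alone was called, against 3.69% of all genes called higher, with a median of 0.12. Their summed level went from 9668 to 10661 CPM in naïve males to 15672 to 16274 after CCI, and from 12154 to 12199 CPM in naïve females to 12868 to 14746 after CCI. In the interaction edgeR called 0 of the 4, with all 4 at an unadjusted p below 0.05 (of 4085 genes in all). DESeq2 called all 4 (of 1594 genes in all), and their median in edgeR was −0.50. In DRGs taken whole, a larger share of neuronal RNA and more channel RNA per neuron cannot be told apart, nor can fewer cells of a type and less RNA per cell.

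Scaled to these 4 pan-neuronal genes in place of TMM, the rise of Scn9a was called in both sexes, in males just above the log2FC threshold. Of all 16988 genes this scaling called 9736 in males and 1784 in females, against 3663 and 967 under TMM. Its log2FC was 0.51 in males (edgeR adjusted p = 0.00434) and 0.69 in females (adjusted p = 9.02e-05). That of Scn8a was 0.37 in males (adjusted p = 0.0213) and 0.24 in females (adjusted p = 0.197), not called in either. The interaction was then 0.18 for Scn9a, with its sign turned, and −0.13 for Scn8a, with adjusted p-values of 0.269 and 0.508. This scaling moved the median log2FC of all genes to −0.68 in males, −0.17 in females and 0.52 in the interaction. Relative to that median Scn9a stood 1.19 higher in males and 0.86 in females, and Scn8a 1.05 and 0.41. Such relative values hardly depend on the scaling, so they do not test whether the rise held under it.

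**Figure D4:**
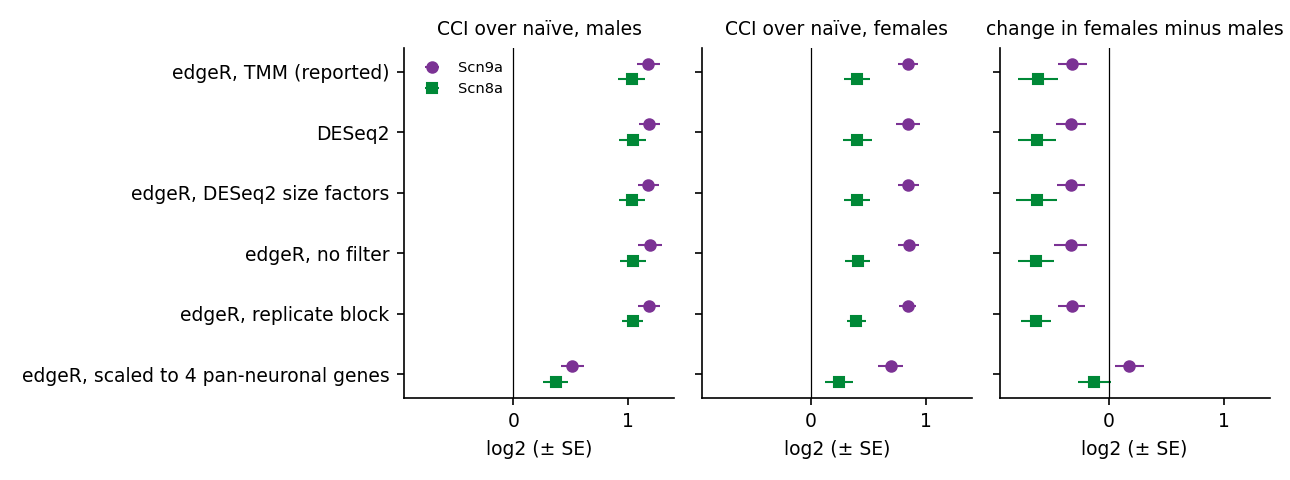
Log2FC ± SE (horizontal axes, the same range in each panel) of Scn9a (circles) and Scn8a (squares) for CCI over naïve males, CCI over naïve females and the difference of these responses (females minus males), under 6 settings. The first 5 settings lie close together, and scaling to the pan-neuronal genes lowers both genes in males to 0.51 and 0.37 and brings the difference between the sexes to 0.18 and −0.13.

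Of 5 markers of neuron classes with an identifier, 4 were called higher in males and 0 in females by edgeR and by DESeq2. In edgeR 9.05% of all genes were called higher in males and 3.69% in females. In females 2 of the 5 were higher at an unadjusted p below 0.05 in edgeR, where 4882 of all 16988 genes were below it in either direction. The study picked these markers on the same libraries, so the counts are not independent evidence. The peptidergic nociceptor genes Calca and Tac1, which encode calcitonin gene-related peptide and substance P, had log2FC values of 0.91 and 1.05 in males, both called, and 0.24 and 0.41 in females, not called. They were 2 of the 4 genes of that list. P2rx3, an ATP receptor of non-peptidergic nociceptors and 1 of 4 listed, had 0.75 in males, called, and 0.31 in females, not called. Of 6 listed genes of large myelinated neurons, 2 had an identifier. Nefh, the heavy neurofilament, was called in males at 0.65 and had 0.23 in females, while Pvalb, a marker of proprioceptors, had 0.06 in males and was called lower in females at −0.84 (edgeR adjusted p = 0.0105).

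Transcripts of other cells moved as well, and their part in the changes of Scn9a and Scn8a was not tested. Markers with an identifier were picked by the study on the same libraries, so counts of calls among them are not independent evidence. Of 7 myelinating Schwann cell genes 4 had an identifier (Mbp, Prx, Mag and Ncmap), and 4 were called lower in males and 2 in females, against 12.5% and 2% of all genes. Their summed level was 9665 to 11804 CPM in naïve males and 2816 to 2941 after CCI, and 6493 to 8128 CPM in naïve females and 3431 to 4548 after CCI. The satellite glia gene Fabp7, 1 of 4 listed, was called lower in both sexes at −0.88 and −0.73. Both of the fibroblast genes Dcn and Col1a1, of 3 listed, were called lower in males and neither in females, against 12.5% and 2% of all genes. Their summed levels were 1724 to 1844 and 1065 to 1103 CPM in naïve and CCI males, and 1677 to 1734 and 1498 to 1505 CPM in naïve and CCI females.

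Muscle and blood genes were also measured. Those with an identifier were picked by the study on the same libraries, so their calls are not independent evidence. Of 5 muscle genes 3 had an identifier, of which 3 were called higher in males and 2 lower in females, against 9.05% and 2% of all genes. Their summed level was 32.1 to 37.5 and 55.4 to 60.8 CPM in naïve and CCI males, and 28.9 to 44.6 and 22.9 to 24.8 CPM in naïve and CCI females. The 3 blood genes were called in 0 of 3 in males by edgeR, with 0 at an unadjusted p below 0.05 and 0 called by DESeq2, and lower in 3 of 3 in females, against 2% of all genes. Their summed level was 27.5 and 282 CPM in the naïve males and 46.8 to 55.4 after CCI, and 296 to 445 CPM in the naïve females and 36.5 to 41.6 after CCI. The macrophage gene Cd163, 1 of 6 listed, was at 1.54 to 5.96 CPM over all libraries and not called after CCI in either sex. No listed endothelial gene had an identifier, and no marker with an identifier was at 0 in any library.

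**Figure D5:**
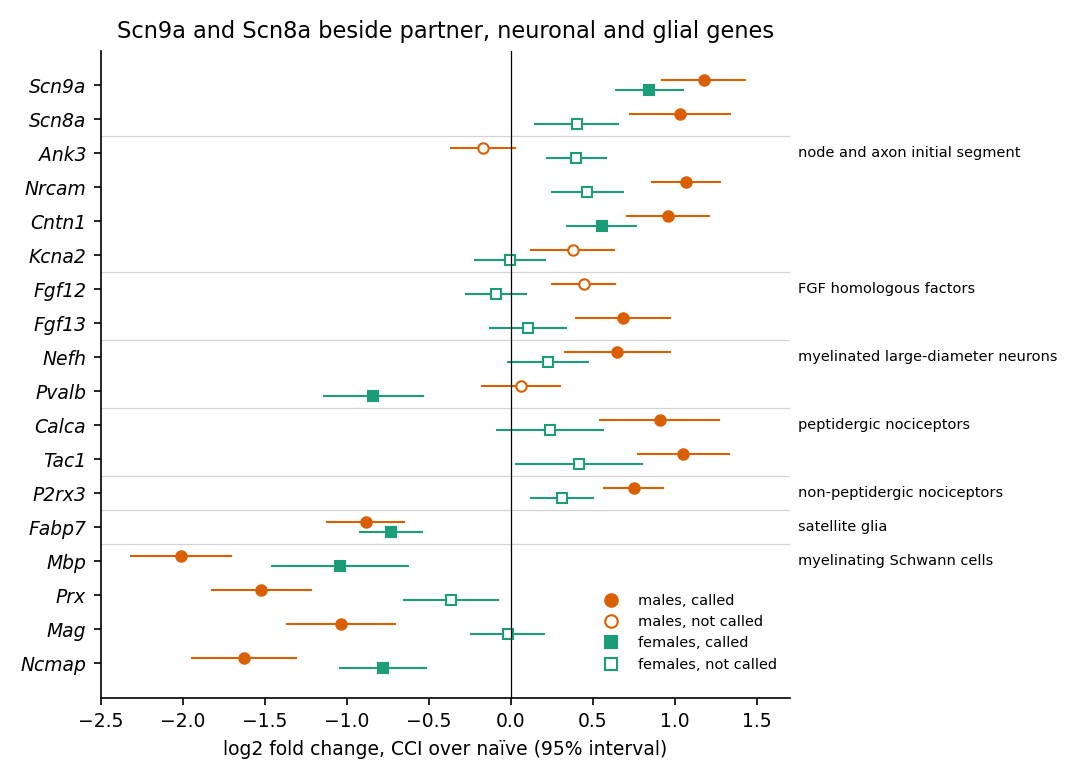
Log2FC of CCI over naïve rats with its 95% interval (horizontal axis) in males (circles) and females (squares), filled where called, for Scn9a and Scn8a and for listed partner, neuronal and glial genes that have an identifier. In females Scn9a at 0.84 lies above each of the partner and neuronal genes shown. The Schwann cell genes were called lower in 4 of 4 in males, at −2.01 for Mbp, and in 2 of 4 in females, with Mag at −0.02. Of all genes 12.5% were called lower in males and 2% in females.

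The genes whose pattern was most like each member were found by Pearson's r of log2 CPM over the 8 libraries among 13082 genes, as a description. The groups differ in many genes at once, so a high r is shared by many genes. For Scn9a the most alike was ENSRNOG00000038784 (r = 0.999), followed by Cbln2 (r = 0.999), which encodes the synapse organizer cerebellin 2 and had a log2FC of 1.44 in males and 1.04 in females. The other 3 of the 5 most alike have no symbol in the tables used here. For Scn8a the most alike was Pcsk2 (r = 0.997), which encodes a prohormone convertase of neurons, with a log2FC of 0.84 in males and 0.30 in females, and the other 4 have no symbol. Scn8a itself ranked 1074 for Scn9a, and Scn9a ranked 757 for Scn8a (r = 0.932 between them).

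Among genes with a symbol, others that were much alike were named after their values were seen. For Scn9a they were Lifr, a cytokine receptor subunit, the vesicle protein gene Syt4, the granin Scg2 and the sodium/proton exchanger Slc9a9, with log2FC values of 0.95, 1.39, 1.04 and 0.94 in males and 0.70, 1.25, 0.59 and 0.54 in females. Each was called in both sexes. For Scn8a they were Nell2, the calcium sensor Syt2 and the calcium pump Atp2b3, with 0.91, 0.76 and 0.74 in males and 0.26, 0.27 and 0.25 in females. Each was called in males and none in females. Over all genes 21.6% were called in males and 5.69% in females. The genes of both sets were picked for a pattern like the member's in these same libraries, so their calls are not independent evidence.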

How the data were processed

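The deposited table holds raw read counts per Ensembl gene for 8 libraries. The libraries were stranded, poly(A)-selected and read from both ends. According to the sources, the authors called bases with CASAVA 1.8.2, mapped reads to rn6 with HISAT2, took out rRNA reads and counted the rest with featureCounts, with no correction for batch. Versions of HISAT2 and featureCounts are not given in the sources used here. Groups came from the sample titles, and each library is a separate rat.

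The filter on low counts was filterByExpr on all 8 libraries, at a minimum of 10 and a total of 15. Each comparison was fitted on its 4 libraries, and the interaction on 8, with edgeR 4.0.16 in R 4.3.3 (TMM, glmQLFTest). For the interaction an adjusted p below 0.05 was enough. SEs were derived from log2FC and F. Alternatives were DESeq2 1.42.0, other scalings, no filter, a replicate block and leaving out each library. Scripts were tested on simulated counts.

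Symbols for 1961 identifiers came from the study's tables, which list genes it selected on these libraries, so most list members could not be matched. The rule for named genes took both members, every listed channel and partner gene with an identifier, and the 5 genes most alike in pattern whose mean log2 CPM was 1 or more. Members and lists were chosen with earlier results of these data known. The values of 2 genes under these rules are not reported here. Promoters came from RefSeq (GRCr8).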

Additional observations from a re-analysis of the deposited data

How the results depend on the processing

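With 2 rats per group, each call rests on a model of the spread, and depth did not limit the members. With fewer libraries left, residual degrees of freedom fall, and the lone rat is assumed to vary like the others. Leaving out 1 library at a time moved Scn9a over 1.07 to 1.28 in males, 0.78 to 0.93 in females, 0.19 to 0.40 between naïve sexes, −0.10 to 0.05 between CCI sexes and −0.42 to −0.22 in the interaction, and Scn8a over 0.88 to 1.19, 0.25 to 0.55, 0.09 to 0.39, −0.54 to −0.24 and −0.78 to −0.47. The male calls of both genes were lost without CCI male replicate 1 and the female call of Scn9a without CCI female replicate 2. The near-zero Scn9a difference between CCI sexes changed sign without CCI male replicate 1 (0.00338) and without CCI female replicate 1 (0.0488).

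Sodium channel genes called, of 4, ranged over 0 to 3 in males, 0 to 2 in females, 0 to 1 between CCI sexes and 0 to 1 in the interaction. Genes called in all ranged over 0 to 3722 in males, 84 to 1836 in females, 6 to 327 between naïve sexes, 32 to 656 between CCI sexes and 0 to 563 in the interaction, against 3663, 967, 12, 180 and 270 with every library. For the counts of 0 in the interaction, from 2728 to 3887 genes had an unadjusted p below 0.05.

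Scaling to the pan-neuronal genes left Scn8a in males at 0.37. It turned the sign of the naïve sex difference of Scn9a (−0.00733) and Scn8a (−0.065). The sign of the CCI sex difference of Scn9a (0.17) and of its interaction (0.18) turned too. The median of all genes moved to −0.31, 0.21 and 0.52 there. Relative to that median Scn9a stood at 0.30, −0.03 and −0.34 and Scn8a in naïve sexes at 0.24. Values relative to the median hardly depend on the scaling, so they do not test whether a sign held under it. This scaling called 1 sodium channel gene in males, in females, between naïve sexes and in the interaction, and 0 between CCI sexes. In all it called 9736 genes in males, 1784 in females, 2654 between naïve sexes, 432 between CCI sexes and 5318 in the interaction. DESeq2 called Scn8a in the interaction (−0.63), 1 sodium channel gene between CCI sexes, 3 in the interaction, and 1014 genes between naïve sexes, 389 between CCI sexes and 1594 in the interaction. Without the filter on low counts the Scn8a interaction (−0.63), 1 sodium channel gene between CCI sexes and 2 in the interaction were called. In all, 130 genes were then called between naïve sexes, 284 between CCI sexes and 1032 in the interaction. The fit over all 8 libraries called 906 genes between naïve sexes.

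With the replicate number as a block, 6 genes were called between naïve sexes and 68 between CCI sexes, 1 sodium channel gene in the interaction, and no call of Scn9a or Scn8a changed. Deviations of replicate 1 correlated at 0.731 between the male groups, whose replicate 1 headers carry the added letter, and at −0.00788 between the female groups. The reported fits did not use the replicate numbers and so leave out this shared structure in males, whose source was not tested. With the block the SE of Scn8a in males was 0.0928, against 0.117 without it. The mean log2 ratio of Scn9a to Scn8a was higher after CCI by 0.29 (exact permutation p = 0.0556 within sex, 0.0286 over all 8) and by 0.26 to 0.33 without any 1 library, where the exact p within sex was 0.0556 to 0.111, the latter without naïve male replicate 2 or CCI male replicate 1. The cause of these changes was not tested.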
